A study of Mus musculus with 10 samples.

Results

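Pontin and Reptin are the proteins encoded by Ruvbl1 and Ruvbl2, and both genes were followed through every library of the series. They were found by symbol among the 22713 gene IDs of the mRNA tables, as ENSMUSG00000030079 (Ruvbl1) and ENSMUSG00000003868 (Ruvbl2), so 2 of 22713 genes are described. Mouse embryonic stem (ES) cells of 2 lines gave 8 mRNA libraries and 2 ChIP-seq libraries. In Pontinf/f; CreER ES cells, derived from blastocysts, both Pontin alleles carry loxP sites around exon 3, and 4-hydroxytamoxifen (OHT) activates the Cre fusion protein; there was 1 library without treatment (WT), 1 at 3 days (OHT 3D) and 1 at 4 days after OHT (OHT 4D). The WT library therefore carries the floxed alleles and CreER too, and it had no OHT. ZHBTc4 ES cells make Oct4 (gene Pou5f1) from a transgene that tetracycline (Tc) shuts off, and there was 1 library at 2 days after Tc (Tc 2D). ZHBTc4 cells 4 days after infection with a pLKO lentivirus gave 2 libraries with a control shRNA against luciferase and 2 with shlinc1253, an shRNA against the long non-coding RNA linc1253. ChIP-seq was made from untreated ZHBTc4 cells, 1 library with an antibody against Pontin and 1 with an antibody against GFP as control.

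Pontin and Reptin are AAA+ ATPases, a class of proteins that assemble into rings and use ATP to remodel other proteins or nucleic acids. The pair forms a hetero-hexameric ring, and most of its known work is done as that ring. It is a core of the chromatin remodellers INO80 and SRCAP and of the TIP60-p400 histone acetyltransferase complex, and it joins the R2TP co-chaperone, which helps HSP90 to assemble small nucleolar ribonucleoproteins (snoRNPs), RNA polymerase II and the PIKK family of large kinases. In ES cells, TIP60-p400 is known for its part in keeping the cells undifferentiated.

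In the NCBIM37 build, Ruvbl1 lies on the plus strand at chr6:88415403-88447566. Its main transcript, Ruvbl1-001, has 11 exons and 1675 bases, of which 1371 are coding. Ruvbl2 lies on the minus strand at chr7:52677222-52693466, and has 3 annotated transcripts. Ruvbl2-001 has 18 exons and 2220 bases, and Ruvbl2-002 has 15 exons and 1834 bases with the same coding length, 1392. Translated from these transcripts, Pontin has 456 residues and Reptin 463, and 196 of 443 aligned residues were identical (44.2%). The Walker A (P-loop) pattern that binds ATP fell at residues 70 to 77 of Pontin and 77 to 84 of Reptin, with 7 of its 8 positions identical.

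The exon that Cre removes is the point at which the Pontin-depleted libraries differ from WT by design, so its sequence is given first. Exon 3 of Ruvbl1-001 is coding, at chr6:88423071-88423203 on the plus strand, and reads 5′ to 3′ as follows (no base is marked).
Ruvbl1 exon 3: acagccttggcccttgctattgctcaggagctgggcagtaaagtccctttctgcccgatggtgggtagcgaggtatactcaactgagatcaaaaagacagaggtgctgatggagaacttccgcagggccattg
Its 133 bases are 7.94% of the transcript and touch codons 77 to 121. Since 133 leaves a remainder of 1 when divided by 3, a transcript joining exon 2 to exon 4 is out of frame, and in the annotated sequence its first stop is at codon 80, 3 codons after the junction. The deposited values count reads over all exons of a gene, so a transcript without exon 3 still adds to Ruvbl1.

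The 250 bases upstream of the RefSeq start site were examined because the ChIP-seq libraries were read at the promoters of the pair. They come from the RefSeq promoter table (GRCm38.p6) and were located by their sequence in NCBIM37, at chr6:88415153-88415402 (Ruvbl1, plus strand) and chr7:52689835-52690084 (Ruvbl2, minus strand). The stretch of Ruvbl1 lies outside its annotated exons. Of the 250 bases of Ruvbl2, 245 lie in exons annotated for its transcripts, 0 of them coding, so this stretch is not printed. Capitals mark, on either strand, the motif CCAAT and the motif TATAAA.
Ruvbl1 promoter: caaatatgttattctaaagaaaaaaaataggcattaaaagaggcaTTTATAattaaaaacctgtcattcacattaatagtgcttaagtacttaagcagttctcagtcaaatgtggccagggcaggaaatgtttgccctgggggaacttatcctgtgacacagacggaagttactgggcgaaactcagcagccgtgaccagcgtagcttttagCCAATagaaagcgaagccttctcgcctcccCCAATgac
Neither window, extended to 50 bases downstream of the start site, held the octamer ATGCAAAT that POU factors such as Oct4 bind, which 1.74% of 32851 RefSeq windows held. Neither held the E-box CACGTG (7.15% of windows). CCAAT was found 2 times at Ruvbl1 and 3 times at Ruvbl2, against 37.4% of windows with at least 1. GGGCGG was found 1 time at Ruvbl1 and 2 times at Ruvbl2 (35.7%), and TATAAA 1 time at Ruvbl1, 205 bases upstream of the start (13.6%). These motifs overlap none of the others listed, and those upstream of the RefSeq start of Ruvbl2 all lie in its annotated exons. The GC content of the 250 bases was 42.4% at Ruvbl1 and 56.8% at Ruvbl2, with a median of 52.4% over all windows. A match is a description of letters only.

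Reads on genes ranged from 17187595 to 37951742 per library, and the normalized read count (counts-per-million, CPM) was deposited in 2 tables, one for WT, OHT 3D, OHT 4D and Tc 2D and one for the shRNA libraries, each normalized on its own. Levels are therefore compared within a table. WT, OHT 3D, OHT 4D and Tc 2D are single libraries, and the 95% intervals below are exact Poisson or binomial intervals that cover counting error only. ES cells were grown on embryonic fibroblast feeders or without feeders, so 18 fibroblast markers were followed beside the pair. They summed to 56.7 (WT), 303 (OHT 3D), 364 (OHT 4D) and 72.1 (Tc 2D) CPM, and to 128 to 172 with shRNA, and of 16 markers above 1 CPM, 15 were higher by more than 0.58 (log2) at each OHT time point, beside 6.01% (OHT 3D) and 6.48% (OHT 4D) of all genes. Trophectoderm markers summed to 242 (WT), 238 (OHT 3D), 410 (OHT 4D) and 514 (Tc 2D) CPM. Of 8 above 1 CPM, 5 were higher and 2 lower at OHT 3D (median log2-fold-change 0.92), and 5 higher and 1 lower at OHT 4D (1.02); their part in the values of the pair was not tested. Of the 9 defining fibroblast markers, 3 were above 1 CPM in WT and 7 at each OHT time point, and they summed to 17.8 (WT), 117 (OHT 3D), 153 (OHT 4D) and 7.97 (Tc 2D) CPM; Lum was at 0 in WT, OHT 3D and Tc 2D, and Postn and Dcn at Tc 2D. The 10 ES cell markers summed to 3680 (WT), 3491 (OHT 3D), 3804 (OHT 4D) and 484 (Tc 2D) CPM, and to 5990 to 6733 with shRNA. Pou5f1 itself read 302 (WT), 296 (OHT 3D), 347 (OHT 4D) and 21.1 (Tc 2D) CPM, and 582 to 708 with shRNA.

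Both genes were strongly expressed in ES cells. In the WT library Ruvbl1 read 198 CPM (4438 reads, 95% interval 193 to 204). The OHT 3D library gave 33.3 CPM (736 reads, 30.9 to 35.8), the OHT 4D library 50.9 (1161 reads, 48.0 to 53.9) and the Tc 2D library 85.0 (2412 reads, 81.6 to 88.5). In the other table it was at 166 and 186 CPM in the control shRNA libraries and at 188 and 148 in the shlinc1253 libraries. The order in the first table was WT, Tc 2D, OHT 4D and OHT 3D, with no overlap of neighbouring counting intervals.

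In the WT library Ruvbl2 read 327 CPM (7323 reads, 95% interval 320 to 335). The OHT 3D library gave 311 CPM (6870 reads, 304 to 318), the OHT 4D library 364 (8304 reads, 356 to 372) and the Tc 2D library 169 (4783 reads, 164 to 173). The control shRNA libraries were at 411 and 392 CPM, and the shlinc1253 libraries at 376 and 328. Its order in the first table was OHT 4D, WT, OHT 3D and Tc 2D. Counting intervals of these libraries did not overlap, but no spread between samples is known for them, and the gap between WT and OHT 3D was of the size of that between the 2 control shRNA libraries.

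**Figure D1:**
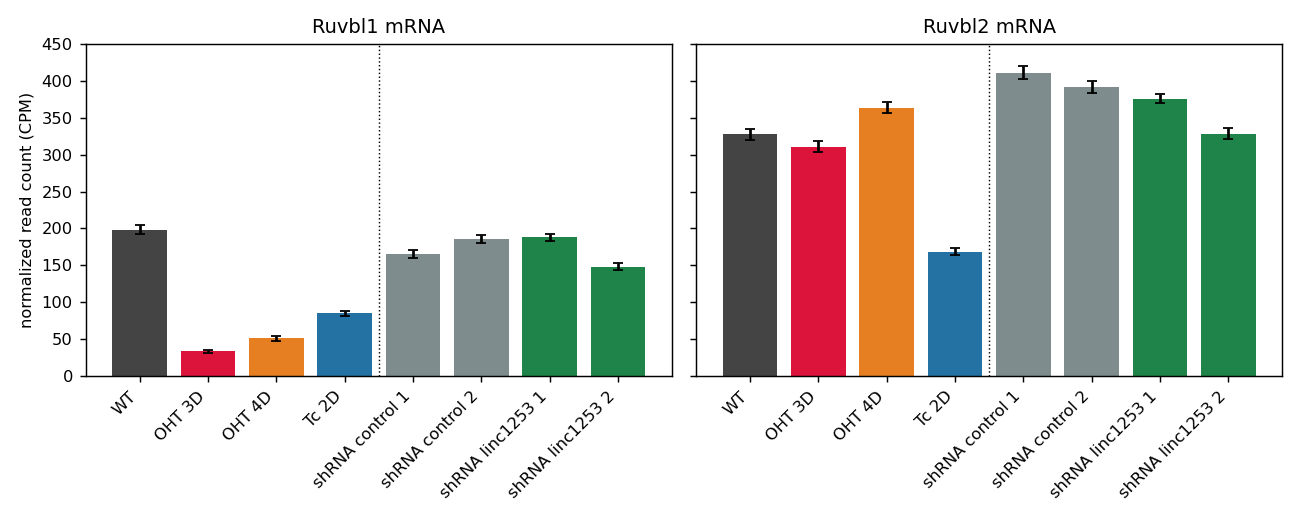
Normalized read count (CPM, y axis) of Ruvbl1 (left) and Ruvbl2 (right) in each of the 8 mRNA libraries (x axis). Bars are single libraries, error bars are exact Poisson 95% intervals of the reads, and the dotted line separates the 2 tables, which were normalized separately. Ruvbl1 is lowest at OHT 3D and OHT 4D (33.3 and 50.9 CPM), and Ruvbl2 is lowest at Tc 2D (169 CPM).

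To compare the 2 genes with each other, CPM was divided by the kilobases covered by exons, 1899 bases for Ruvbl1 and 2573 for Ruvbl2. On this per-length scale the level in WT was 104 for Ruvbl1 and 127 for Ruvbl2, higher than 96.8% and 97.6% of 13447 genes expressed in that table. At OHT 3D the level of Ruvbl1 was 17.5 per kb, higher than 75.7% of genes, and that of Ruvbl2 was 121 per kb, higher than 97.6%. The Pontin mRNA counted after OHT was thus above that of most expressed genes per length of exon.

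The ratio of Ruvbl2 to Ruvbl1 per kb of exon was 1.22 in WT (95% counting interval 1.17 to 1.26). The OHT 3D library gave a ratio of 6.89 (6.38 to 7.44), the OHT 4D library one of 5.28 (4.96 to 5.62) and the Tc 2D library one of 1.46 (1.39 to 1.54). In the shRNA libraries it was 1.83 and 1.55 in the controls and 1.48 and 1.64 with shlinc1253. The ratio lay between 1.22 and 1.83 in all 6 libraries without OHT and above 5 in both with OHT. With the lengths of Ruvbl1-001 and Ruvbl2-002 in place of all exons, the ratio was 1.51 (WT), 8.53 (OHT 3D) and 6.53 (OHT 4D), so its size depends on which transcript is taken. It also depends on how reads shared with a near-identical copy of Ruvbl1, described below, were counted, which the intervals do not cover.

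**Figure D2:**
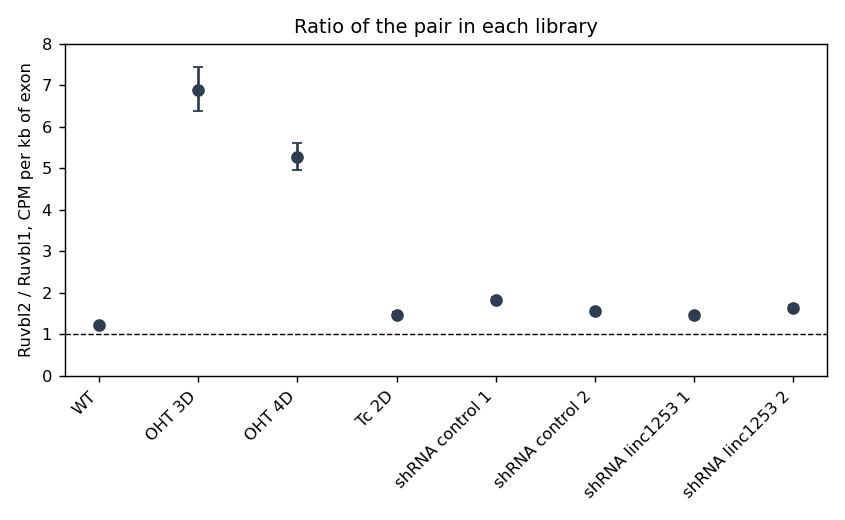
Ratio of Ruvbl2 to Ruvbl1 (y axis, both in CPM per kb of exon) in each mRNA library (x axis), with exact binomial 95% counting intervals and a dashed line at 1. The 6 libraries without OHT lie between 1.22 and 1.83, and OHT 3D and OHT 4D lie at 6.89 and 5.28.

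Comparison of OHT 3D and OHT 4D with WT asks how the mRNA of the deleted gene and of its partner stood after Cre activation. The limit for a call was the one named in the study's methods. All 13449 genes with a value over 1 CPM in any library of the table entered, log2-fold-changes were computed on CPM plus 1, and a gene was called where its change exceeded 0.58 in either direction. Ruvbl1 was lower at OHT 3D with a log2-fold-change of -2.54 (95% counting interval -2.69 to -2.46), which left 16.8% of the WT level. At OHT 4D the log2-fold-change was -1.94 (-2.06 to -1.87), which left 25.6%. Of the 13449 genes, 1 had a lower log2-fold-change than Ruvbl1 at OHT 3D and 3 at OHT 4D. Fewer cells with Ruvbl1 mRNA and less of it per cell cannot be told apart in these bulk libraries.

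Ruvbl2, which was not targeted, was not called at either time point. The log2-fold-change was -0.07 (95% counting interval -0.12 to -0.03) at the earlier and 0.15 (0.11 to 0.20) at the later, at the percentiles 42.6 and 66.6 of all genes. Of all genes, 5.88% (OHT 3D) and 8.89% (OHT 4D) were called lower, and 6.01% and 6.48% higher. The 2 comparisons share the WT library. The difference between Ruvbl1 and Ruvbl2 at each time point was far outside counting error, and there is no replicate to set it against.

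Between the OHT time points, Ruvbl1 was at 33.3 and then 50.9 CPM, a log2-fold-change of 0.60 (95% counting interval 0.48 to 0.75) between single libraries. Ruvbl2 had a log2-fold-change of 0.23 (0.18 to 0.27) over the same step, and the median of all genes was 0.03. The fibroblast markers summed to more CPM at OHT 4D as well (364 against 303). Of 16, 12 were at a higher value and 0 were called, with a median log2-fold-change of 0.24 from OHT 3D to OHT 4D. Against WT their median was 1.91 at OHT 3D and 1.72 at OHT 4D. Of 8 trophectoderm markers, 3 were called higher and 0 lower over this step, beside 5.47% and 8.84% of all genes. The part of other cells in the Ruvbl1 mRNA left after OHT was not tested.

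**Figure D3:**
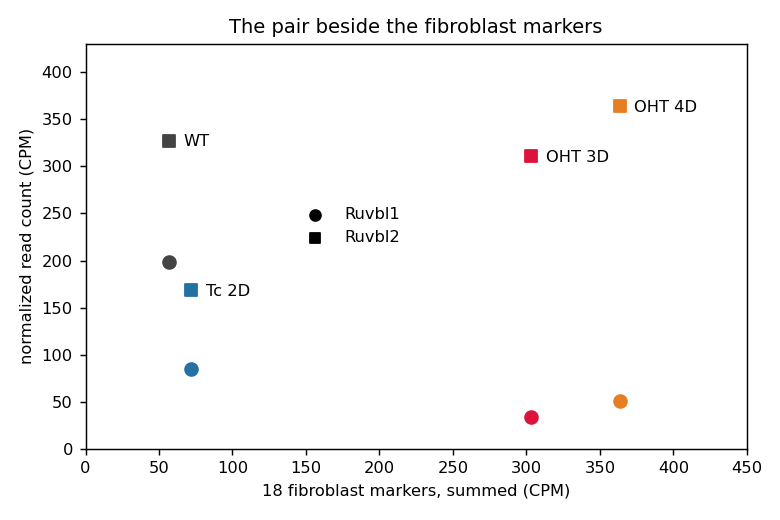
Normalized read count (CPM, y axis) of Ruvbl1 (circles) and Ruvbl2 (squares) in WT, OHT 3D, OHT 4D and Tc 2D, against the summed CPM of 18 fibroblast markers (x axis); each point is 1 library. The 2 OHT libraries lie at 303 and 364 CPM of fibroblast markers and the other 2 at 56.7 and 72.1, and Ruvbl1 is at 33.3 and 50.9 CPM in the OHT libraries.

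The annotated genome holds a near-identical copy of the Ruvbl1 mRNA. A stretch of 1624 bases at chr1:141824637-141826260 was 99.1% identical to bases 46 to 1669 of Ruvbl1-001. It lies within the spans of the protein-coding gene Cfhr2 and the pseudogene Gm16332, and 0 of its bases are in annotated exons of either; Cfhr2 was at 0 CPM in all 8 libraries, and Gm16332 was not analysed here. Of all 50-base windows of Ruvbl1-001, 65.9% were identical in this copy, and of all 100-base windows 44.7%. Shorter and less similar stretches were found on chromosome 8 (1002 bases, 86.5% identical) and chromosome 12 (467 bases, 83.7%), and none for Ruvbl2 at 80% identity over 100 bases. Reads were allowed to align at up to 10 places, and how reads with more than 1 place were counted is not given in the sources used here. The level of Ruvbl1, its ratio to Ruvbl2 and the share left after OHT are uncertain to that extent.

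Comparison of Tc 2D with WT asks how the pair stood when Oct4 was depleted. Both genes were lower. Ruvbl1 had a log2-fold-change of -1.21 (95% counting interval -1.29 to -1.15), 42.8% of the WT level, and Ruvbl2 one of -0.95 (-1.01 to -0.90), 51.5% of the WT level. They stood at the percentiles 8.76 and 13.6 of all genes, in a comparison in which 25.8% of genes were called lower and 23.9% higher. A call in this comparison is therefore common, and the change of cell line from Pontinf/f; CreER to ZHBTc4 cannot be told apart from that of Oct4. By quantitative RT-PCR and immunoblot, the paper found neither Pontin mRNA nor protein to differ significantly once Oct4 was depleted. The lower Ruvbl1 value at Tc 2D differs from that report, but the measures are unlike. The paper's RT-PCR was scaled to Gapdh, and its immunoblot followed ZHBTc4 cells with and without Tc. The value here is CPM in 1 library against another cell line, and the reason for the difference was not tested.

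The ZHBTc4 control shRNA libraries allow the same question within the cell line, on 1 median-ratio scale set over the 8 libraries, although those libraries were also infected and sequenced apart. On that scale Ruvbl1 was at 106 at Tc 2D, and at 181 and 203 in the controls, with log2-fold-changes of -0.77 and -0.94 (mean -0.85). Ruvbl2 was at 210 at Tc 2D, and at 447 and 428 in the controls, with log2-fold-changes of -1.09 and -1.03 (mean -1.06). Both genes were thus lower at Tc 2D than in each of the 3 libraries that kept Oct4 and were set beside it, at the percentiles 16.2 (Ruvbl1) and 11.8 (Ruvbl2). On the same scale the WT library was at 244 for Ruvbl1 and 402 for Ruvbl2, against the controls a log2 difference of 0.35 and -0.12.

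The size of the difference at Tc 2D depends on the scaling. With recovered reads scaled to each library's reads on genes, the median of all genes against WT moved from -0.06 to 0.24, and the log2-fold-change was -0.89 for Ruvbl1 and -0.63 for Ruvbl2. Against the control shRNA libraries on this scale, the median of all genes was 0.44, and Ruvbl1 had a mean log2-fold-change of -0.40, no longer a call, and Ruvbl2 one of -0.61. Exon length also moved with Tc 2D. Genes with up to 2 kb of exons had a median log2-fold-change against WT of -0.39, those with 2 to 4 kb one of -0.09, and those above 8 kb one of 0.33. Ruvbl1 is in the first class and Ruvbl2 in the second, and both were below the median of their class; the part of length in their difference was not tested. The 10 ES cell markers had a median log2-fold-change of -3.13, and 9 were called lower and 0 higher. Of 8 trophectoderm markers above 1 CPM, 7 were called higher and 1 lower. These counts stand beside 25.8% of all genes called lower and 23.9% higher against WT.

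Comparison of shlinc1253 with control shRNA is the only one with replicates, 2 libraries against 2, which the labels number but do not say to be separate cultures. For Ruvbl1 the level was 176 ± 14.3 CPM in the controls and 168 ± 28.0 with shlinc1253 (SD, n = 2 each), and the groups overlapped, since the shlinc1253 libraries held both the highest and the lowest of the 4 values. The log2-fold-change was -0.07 (SE 0.13, 95% interval -0.40 to 0.25, adjusted p = 0.926 by limma). For Ruvbl2 it was 401 ± 13.7 CPM in the controls and 352 ± 33.7 with shlinc1253, and both shlinc1253 libraries were below both controls. The log2-fold-change was -0.19 (SE 0.10, 95% interval -0.43 to 0.05, adjusted p = 0.720 by limma), so the difference did not pass the test. Of 13407 genes tested, limma with Benjamini-Hochberg adjustment called 0 (0%), with 999 at an unadjusted p under 0.05; edgeR called 0, and DESeq2 called 22 higher and 28 lower.

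The mRNAs of the complexes in which the pair works were followed next, as 61 genes in 6 lists, a gene in several complexes being counted in each. At OHT 3D, 2 of the 61 were called higher and 0 lower, beside 6.01% and 5.88% of all genes. At OHT 4D, 3 were higher and 7 lower, beside 6.48% and 8.89%. At Tc 2D, 3 were higher and 21 lower, beside 23.9% and 25.8%. With scaling to reads on genes these were 9 and 16, beside 35.4% higher and 16.4% lower of all genes, and against the ZHBTc4 controls on 1 scale 4 and 18, beside 24.8% and 22.2%. In the linc1253 comparison limma called 0, with 1 gene at an unadjusted p under 0.05; edgeR and DESeq2 also called 0, with 1 and 2 genes at that p. The members of the lists named below were chosen after their values were seen, except Pdrg1.

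INO80 slides nucleosomes and exchanges histones at promoters and damaged DNA. Of its 13 subunits beside the pair, 0 were called at OHT 3D, beside 6.01% of all genes higher and 5.88% lower. The median log2-fold-change was 0.18 against -0.02 over all genes. At OHT 4D, Ino80b and Ino80c were called higher (0.66 and 0.64), 2 of 13 beside 6.48% of all genes, and the median was 0.07 against 0.00. At Tc 2D, Ino80d was called higher (1.35), 1 of 13 beside 23.9% of all genes. Its exons cover 14.7 kb, and 38.4% of genes above 8 kb were called higher at Tc 2D. Actl6a, an actin-related protein shared with the other remodellers, and Mcrs1 were lower (-1.32 and -0.94), 2 of 13 beside 25.8% of all genes. Mcrs1 against the ZHBTc4 controls on 1 scale was at -0.39, no call, and Yy1, at -0.70, was lower with Actl6a. SRCAP deposits the histone variant H2A.Z. At OHT 3D 0 of its 7 subunits were called, beside 6.01% of all genes higher and 5.88% lower. At OHT 4D 0 were called, beside 6.48% and 8.89%. The medians of SRCAP were -0.13 and 0.06, against -0.02 and 0.00 over all genes. At Tc 2D its median was -0.49 against -0.06 over all genes, and Actl6a was the 1 gene called. Srcap has 2 gene IDs, and the one with the higher mean CPM over WT, OHT 3D, OHT 4D and Tc 2D was used (44.4 against 36.6; over all 8 libraries it was the lower, 39.9 against 40.5). The other read 38.7 (WT), 48.1 (OHT 3D), 11.5 (OHT 4D) and 48.0 (Tc 2D) CPM. Its log2-fold-change of -1.67 at OHT 4D would be a call, so with that ID 1 of 7 SRCAP subunits and 8 of 61 complex genes were lower there.

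TIP60-p400 acetylates histones and exchanges H2A.Z. Of its 16 subunits, 1 was called at OHT 3D, the scaffold gene Epc1, which was higher, beside 6.01% of all genes. Epc1 had a log2-fold-change of 0.69 there and of 0.20 at OHT 4D. Kat5, the acetyltransferase (Tip60), read 40.7 (WT), 33.1 (OHT 3D), 35.5 (OHT 4D) and 31.1 (Tc 2D) CPM. The changes against WT, -0.29, -0.19 and -0.38 (log2), were not calls. Ep400, the ATPase p400, read 151 (WT), 175 (OHT 3D), 90.5 (OHT 4D) and 163 (Tc 2D) CPM. Ep400 was called lower at OHT 4D (-0.73), as was Mbtd1 (-0.76), 2 of 16 beside 8.89% of all genes. Both have more than 8 kb of exons, and 28.5% of genes of that length were called lower at OHT 4D. The part of length in these 2 calls was not tested. At Tc 2D, 4 subunits were lower, Morf4l2 (-1.39), Actl6a (-1.32), Morf4l1 (-1.13) and Mbtd1 (-0.84), and 0 were higher, so the share lower was near the 25.8% of all genes. With scaling to reads on genes 3 were lower, without Mbtd1, and Epc1 and Epc2 were higher, beside 16.4% and 35.4% of all genes.

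R2TP and its prefoldin-like partners carry the pair to HSP90 clients. Pdrg1, a prefoldin-like subunit, was the 1 subunit of any list called in the same direction at both OHT time points. It read 17.1 (WT), 43.7 (OHT 3D), 39.2 (OHT 4D) and 22.5 (Tc 2D) CPM, so it stood above WT by 1.31 and 1.15 (log2) after OHT. Of all genes, 6.01% (OHT 3D) and 6.48% (OHT 4D) were called higher. Both calls of Pdrg1 rest on the same WT library, so they are not independent. How many of all genes had such a repeated call was not computed. The other 9 genes of the list were not called at OHT 3D or OHT 4D. At Tc 2D, 7 of the 10 were lower and 0 higher, with a median log2-fold-change of -0.77 against -0.06 over all genes, of which 25.8% were lower. All 10 have under 4 kb of exons, and of all genes 39.6% of those with up to 2 kb and 27.3% of those with 2 to 4 kb were lower. Rpap3, which binds HSP90, was at -1.33, Uxt at -1.31, Uri1 at -1.09 and Pih1d1 at -0.63. With scaling to reads on genes 4 were lower, Rpap3, Uri1, Pfdn6 and Uxt, Pdrg1 was higher, and the median was -0.45, beside 16.4% of all genes lower, 35.4% higher and a median of 0.24. Against the ZHBTc4 controls on 1 scale 4 were lower, Rpap3, Pfdn2, Pfdn6 and Polr2e, beside 22.2% of all genes. Uxt (-0.55), Uri1 (-0.47) and Pih1d1 (0.24) were not calls there.

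The TTT complex hands newly made PIKK kinases to R2TP. Of 8 genes measured, 0 were called at OHT 3D, beside 6.01% of all genes higher and 5.88% lower. At OHT 4D 5 were lower, all of them PIKK kinases, beside 8.89% of all genes. The DNA damage kinase Atm read 59.5 (WT), 73.6 (OHT 3D) and 27.0 (OHT 4D) CPM, a log2-fold-change of 0.30 and then -1.11. The others were Smg1, a kinase of nonsense-mediated decay (0.29 and then -0.99), Prkdc (-0.20 and -0.95), Atr (-0.27 and -0.73) and Mtor (-0.12 and -0.64). All 5 are long, with 8.50 to 15.5 kb of exons. The median of genes above 8 kb was -0.34 (log2) at OHT 4D, and 28.5% of these 1458 genes were called lower, against 3.95% of 2506 genes with up to 2 kb. Without genes above 8 kb, 0 of 49 complex genes were called lower at OHT 4D and 3 higher, beside 6.5% and 6.74% of all genes of these lengths; with the other Srcap ID 1 was lower. At Tc 2D, Prkdc (1.11) and Smg1 (1.11) were called higher, beside 23.9% of all genes and 38.4% of genes above 8 kb. With scaling to reads on genes Telo2, Atm and Atr were as well, beside 35.4% of all genes.

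The snoRNP list holds the box C/D proteins (Nop58, Nop56, Fbl, Nhp2l1), the H/ACA proteins (Dkc1, Nop10, Nhp2, Gar1) and their assembly factors, which are clients or partners of R2TP. Of 13 genes, 0 were called at OHT 3D or OHT 4D, with medians of 0.14 and 0.26. At Tc 2D, 9 were lower and 0 higher, with a median of -0.92, beside 25.8% of all genes lower. With scaling to reads on genes 8 were lower and the median was -0.60, beside 16.4% and 0.24 over all genes. Against the ZHBTc4 controls on 1 scale 9 were lower, with Nop58 and Znhit3 in place of Nufip1 and Dkc1, and the median was -0.67, beside 22.2% and 0.03 over all genes. Nop10, a core H/ACA protein, read 73.4 (WT), 72.3 (OHT 3D), 88.0 (OHT 4D) and 7.19 (Tc 2D) CPM (-3.18). The box C/D methyltransferase Fbl was at 288, 266, 350 and 131 CPM in the same libraries (-1.13 at Tc 2D). Exons cover 1.11 kb for Nop10 and 1.16 kb for Fbl. Of the 9 genes called lower, 4 have up to 2 kb of exons, 4 have 2 to 4 kb and 1 has more, and 39.6%, 27.3% and, for 4 to 8 kb, 20.9% of all genes of these lengths were called lower at Tc 2D.

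**Figure D4:**
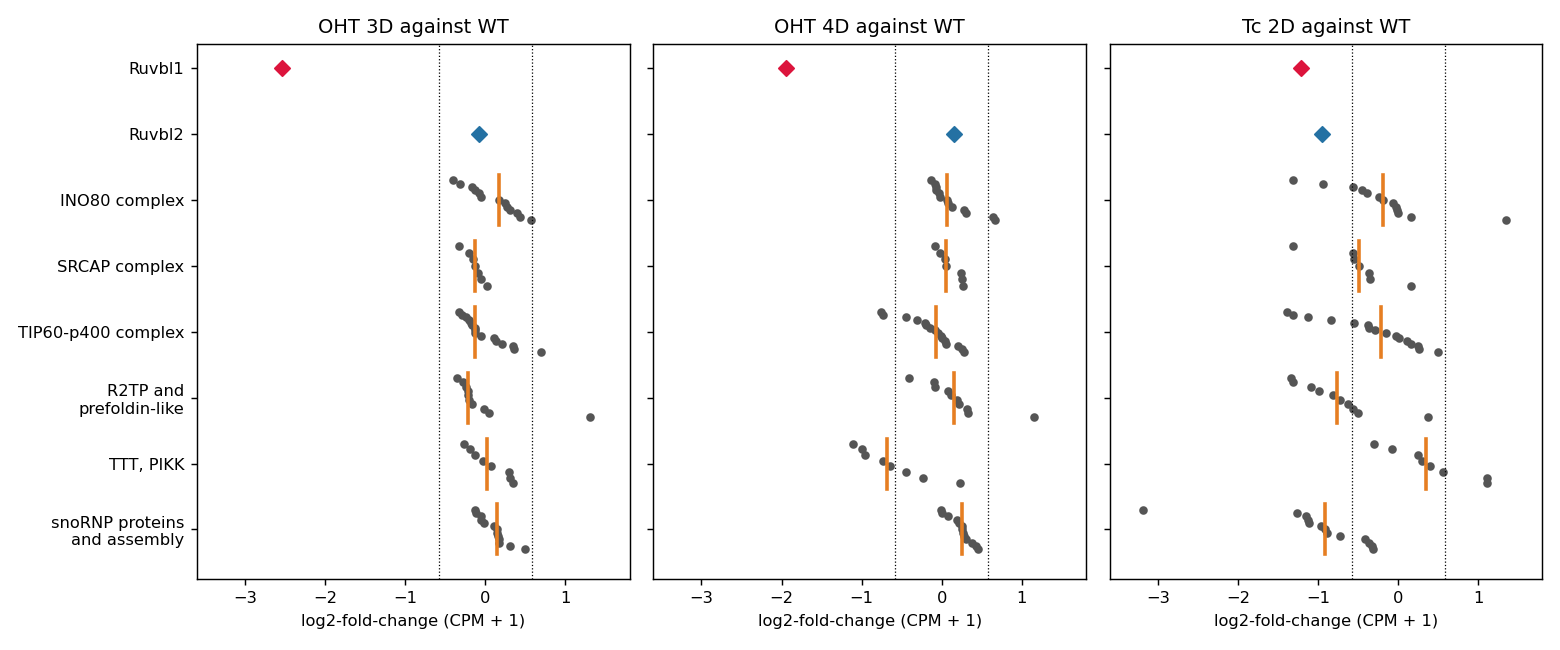
Log2-fold-change of CPM plus 1 against WT (x axis) at OHT 3D, OHT 4D and Tc 2D for Ruvbl1 and Ruvbl2 (diamonds) and for the genes of 6 complex lists (points, 1 gene each; orange lines are list medians; dotted lines are at 0.58 either side of 0). At OHT 3D and OHT 4D most points lie between the dotted lines while Ruvbl1 lies at -2.54 and -1.94, and at Tc 2D both members and 21 of 61 complex genes lie below the lower line.

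The profiles of the pair over the 8 libraries were not alike. With log2 values centred within each table, Pearson's r between Ruvbl1 and Ruvbl2 was -0.09, and 0.34 over the 6 libraries without OHT, as a description over libraries that share a table. The 5 genes of 9956 most like Ruvbl1 were Dhcr7, Slc9a8, Ccbl2, Zer1 and Stt3b, with r from 0.958 to 0.980. Dhcr7, which makes the last step of cholesterol synthesis, read 68.5 (WT), 32.2 (OHT 3D), 37.6 (OHT 4D) and 42.7 (Tc 2D) CPM. The changes of Dhcr7 against WT, -1.07, -0.85 and -0.67 (log2), were all calls but smaller than those of Ruvbl1. The 5 genes most like Ruvbl2 were D6Mm5e, Anapc5, Crabp1, Fam58b and Fpgs, with r from 0.992 to 0.995. Anapc5, a subunit of the anaphase-promoting complex, read 284 (WT), 278 (OHT 3D), 291 (OHT 4D) and 213 (Tc 2D) CPM. Crabp1, a retinoic acid binding protein, was at 15.0, 15.9, 21.3 and 2.54 CPM in the same libraries.

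The genes beside the pair on the chromosome were examined too. Around Ruvbl1, the nearest expressed neighbours, Eefsec (18870 bases away) and Sec61a1 (6029 bases away), had log2-fold-changes of -0.28 and 0.14 (OHT 3D), 0.01 and 0.29 (OHT 4D), and -0.21 and 0.21 (Tc 2D), none of them a call. Sec61a1 encodes the channel of the ER translocon and Eefsec the elongation factor for selenocysteine. Gata2, a transcription factor of trophoblast and blood that lies 258379 bases from Ruvbl1, read 4.20 (WT), 5.88 (OHT 3D), 7.40 (OHT 4D) and 29.0 (Tc 2D) CPM, called higher at OHT 4D (0.69) and Tc 2D (2.53). Of the remaining neighbours of Ruvbl1, Rpn1 was not called in any of the 3 comparisons, Abtb1 was called lower at Tc 2D, and Mgll, at 0.536 to 3.20 CPM in that table, was called higher in all 3. Against the ZHBTc4 controls on 1 scale, Abtb1 was at -0.37 and Mgll at -0.23, neither past the limit.

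Gys1, the muscle glycogen synthase gene, overlaps Ruvbl2 head to head. It starts at base 52690214 on the plus strand, 380 bases from the RefSeq start site of Ruvbl2, and 310 exon bases are shared between the genes. The library kit does not mark the strand, so reads of the 2 genes in the shared bases cannot be told apart. Gys1 read 84.7 (WT), 70.4 (OHT 3D), 82.1 (OHT 4D) and 39.2 (Tc 2D) CPM. The log2-fold-change was -0.26, -0.04 and -1.09, so like Ruvbl2 it was called lower at Tc 2D alone. Against the ZHBTc4 controls on 1 scale it was at -0.56. Lhb shares 3 exon bases with the other end of Ruvbl2 and stood at 0.268 to 1.01 CPM.

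Further out from Ruvbl2, Snrnp70, a protein of the U1 splicing particle, read 397 (WT), 344 (OHT 3D), 407 (OHT 4D) and 215 (Tc 2D) CPM, with a log2-fold-change of -0.88 at Tc 2D and -1.13 against the ZHBTc4 controls. Ftl1, the ferritin light chain, was at 577, 487, 621 and 181 CPM in the same libraries (-1.67 at Tc 2D, and -1.31 against the ZHBTc4 controls). Dhdh was lower at Tc 2D as well (-1.65), and had a log2-fold-change of -0.37 against the ZHBTc4 controls. Bax (-0.42), Ntf5 (0.35) and Kcna7 (0.23) were not called at Tc 2D. Of the 7 neighbours of Ruvbl2 above 1 CPM in this table, 4 were thus called lower at Tc 2D, in a comparison in which 25.8% of all genes were. Only Snrnp70 and Ftl1, 2 of the 7, were lower past the limit against the ZHBTc4 controls, beside 22.2% of all genes.

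The ChIP-seq libraries show whether Pontin reads were gathered at the genes of the pair itself. The Pontin library held 40729076 reads and the GFP library 17185883, and reads were counted from 2.5 kb upstream to 500 bases downstream of a start site and scaled by library size. At the first start site of Ruvbl1 there were 107 Pontin and 36 GFP reads, or 2.63 and 2.09 RPM (reads-per-million of the library). The log2 ratio was 0.33, at the percentile 49.5 of 21190 protein-coding promoters, whose median was 0.34 and SD 0.71. Among 12786 promoters of genes above 1 CPM in the control shRNA libraries, with a median of 0.45, it was at 41.8. Counted as read pairs (80 and 31), still scaled by the total reads of each library, the log2 ratio was 0.12 (95% counting interval -0.49 to 0.77).

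Ruvbl2 has 2 start regions, 3632 bases apart. At the first there were 100 Pontin and 47 GFP reads, a log2 ratio of -0.16, at the percentile 22.5; over 59 and 30 read pairs it was -0.27 (-0.93 to 0.42). At the RefSeq start site, which faces Gys1, there were 88 and 27 reads, a log2 ratio of 0.46, at 57.8; over 48 and 14 read pairs it was 0.53 (-0.35 to 1.51). Among promoters of expressed genes the percentiles of these ratios of reads were 14.9 and 50.7. The intervals over pairs at Ruvbl1 and at the RefSeq start site of Ruvbl2 hold both medians of reads, 0.34 and 0.45. That at the first start site of Ruvbl2 holds 0.34 and ends below 0.45. Total pairs per library were not counted, so setting intervals over pairs beside medians of reads is approximate. Over the gene bodies the log2 ratio of reads, with its interval, was 0.12 for Ruvbl1 (671 and 260 reads, -0.09 to 0.34) and 0.33 for Ruvbl2 (364 and 122 reads, 0.03 to 0.64). These 2 intervals count the reads of a pair separately, so they are narrower than intervals over pairs would be. No median over other gene bodies was computed, so neither ratio can be read as a gain or lack of Pontin.

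The values at the promoters moved with the counting. Repeated positions made up 11.4% of Pontin and 19.3% of GFP reads. With 1 read per position and strand, the median log2 ratio of all promoters was 0.29. The ratio was then 0.98 at Ruvbl1 (percentile 87.6), 0.08 at the first start site of Ruvbl2 (35.1) and 0.31 at its RefSeq start site (51.4). With 1 kb either side of the start site the median of all promoters was 0.53 and the ratio at Ruvbl1 was 0.72 (percentile 60.4). In that window the first start site of Ruvbl2 had 71 Pontin and 11 GFP reads, a log2 ratio of 1.45 at the percentile 87.9, while the RefSeq start site had 77 and 21 reads and a ratio of 0.63 (percentile 55.3). In the 250 bases before the start of Ruvbl1 there were 23 Pontin and 9 GFP reads, 0.56 and 0.52 RPM, and several 250-base bins of GFP held 0 reads. Over the 61 complex genes the median log2 ratio was 0.55 against 0.34 for all promoters and 0.45 for those of expressed genes, with a range from -0.80 to 3.32 (Uchl5), and 39 lay above the median of all promoters.

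**Figure D5:**
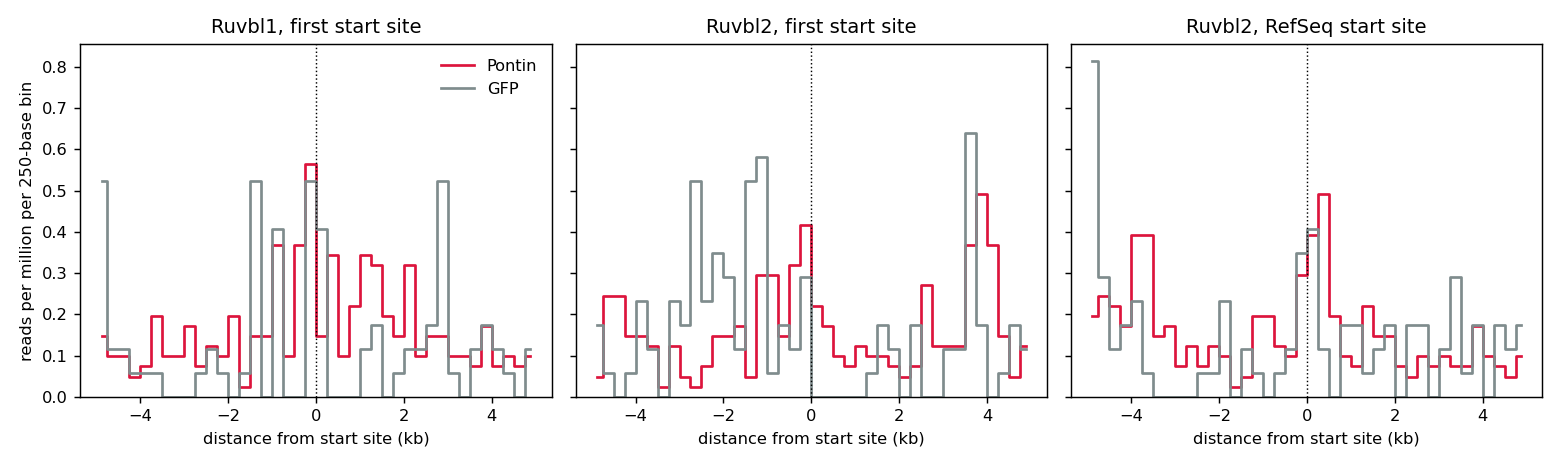
RPM in 250-base bins (y axis) of the Pontin (red) and GFP (grey) ChIP libraries against the distance from a start site (x axis, kb, positive in the direction of transcription), for Ruvbl1 and both start sites of Ruvbl2; each line is 1 library. Both libraries have reads in the 250 bases before each start site, with 0.56 (Pontin) and 0.52 (GFP) RPM at Ruvbl1. The 250 bases after the start held 0.15 and 0.41 RPM at Ruvbl1. They held 0.22 and 0 at the first start site of Ruvbl2, and 0.39 and 0.41 at its RefSeq start site. Several other GFP bins held 0 reads.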

How the data were processed

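The mRNA values were deposited by the authors as CPM. They had removed adapters and low-quality ends with cutadapt, mapped the reads to NCBIM37 in TopHat (up to 10 locations), counted them per gene in HTSeq and scaled the counts in edgeR by TMM. All values were whole numbers of reads within 0.01 read, so reads could be recovered, 17187595 to 37951742 per library; nearly all genes listed are protein-coding, and 22337 of 22713 IDs had a symbol. The deposited ChIP files give reads aligned with Bowtie2 and a mapping quality score per read, and no duplicates were removed.

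Log2-fold-changes were taken on CPM plus 1, so they understate changes of low genes, and 1 library against 1 has no test. The linc1253 comparison was fitted with limma 3.58.1 with trend; on recovered reads, the alternatives were edgeR 4.0.16 (quasi-likelihood) and DESeq2 1.42.0 (Wald test) (R 4.3.3). On simulated data for that comparison with 200 of 13407 genes changed 4-fold, limma recovered 100%. The changed genes were above 5 CPM, and the simulation used a fixed spread and no replicate effect. It therefore cannot show whether differences as small as those of the pair would be found. Copies were sought with BLAST+ 2.17.0 (at least 80% identity over 100 bases). The remaining steps used Python 3.11.15 (scipy 1.17.1, numpy 2.4.6, pysam 0.24.0, pandas 2.3.3). The floor is 3 reads, 0.0773 to 0.138 CPM.

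The members and the gene lists were chosen with earlier results of these data known. The genes named by rule were the pair, the 5 most like each member among genes with a mean of at least 5 CPM in both tables, the 3 nearest expressed genes on each side and any overlapping gene, subunits called at both OHT time points (Pdrg1), and Pou5f1; other subunits were named after their values were seen. Of 62 genes in the complex lists, 61 had an ID. Srcap, with 2 IDs, was taken by the higher mean CPM over WT, OHT 3D, OHT 4D and Tc 2D. Promoter sequences are RefSeq's, and both members matched.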

Additional observations from a re-analysis of the deposited data

Results flagged for a closer look

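Ruvbl2 lay below WT at OHT 3D and above it at OHT 4D, with log2-fold-changes of -0.07 and 0.15, and neither was a call. Ep400 (0.21 and -0.73), Smg1 (0.29 and -0.99) and Atm (0.30 and -1.11) lay above WT at OHT 3D and below it at OHT 4D. Only the pair and the subunits called at OHT 3D or OHT 4D were looked at here. Other subunits had the same order of signs without a call, such as Trrap (0.35 and -0.45) and Epc2 (0.36 and -0.31). Ep400, Smg1 and Atm have more than 8 kb of exons. The median log2-fold-change of all genes of that length was 0.08 at OHT 3D and -0.34 at OHT 4D. Each value is from 1 library against 1, with WT shared, and the difference between the time points was not tested.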

How the results depend on the processing

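For OHT 3D and OHT 4D against WT, the log2-fold-changes of the pair stayed within their counting intervals in all 16 alternatives (pseudocount 0.5 or 3, scaling to the reads on genes, median-ratio scaling). At Tc 2D, Ruvbl1 moved from -1.21 to -0.89 and Ruvbl2 from -0.95 to -0.63 with scaling to the reads on genes. Against the ZHBTc4 controls they were at -0.85 and -1.06 on one median-ratio scale, and at -0.40 and -0.61 with scaling to reads on genes, the last chosen after seeing the data. For linc1253, leaving out each library gave -0.24 to 0.10 for Ruvbl1 and -0.29 to -0.09 for Ruvbl2; Ruvbl1 changed sign without control replicate 2 (0.01) and without shlinc1253 replicate 2 (0.10). The replicate block left the log2-fold-change of Ruvbl2 at -0.19 with an adjusted p of 0.0294 (limma), and called 933 genes higher, 1027 lower and 10 of the 61 complex genes, beside 14.6% of all genes. Same-numbered libraries deviated together (correlation 0.67 across genes), but 2 pairs that share only a number do not show pairing. DESeq2 called 22 higher and 28 lower; without control replicate 2 limma called 1 and 2, and without shlinc1253 replicate 1, 14 and 3. Other alternatives called 0. With 1 read per position and strand the ChIP log2 ratio at Ruvbl1 was 0.98, and at Ruvbl2 it was 1.45 with 1 kb either side and 0.46 at the RefSeq start, which was added after seeing the data. With a limit of 1, complex genes called were 1 higher at OHT 3D, 1 higher and 1 lower at OHT 4D, and 3 higher and 11 lower at Tc 2D, beside 1.9%, 2.38%, 1.61%, 12.8% and 12.6% of all genes in this order. With scaling to reads on genes 9 were higher and 16 lower at Tc 2D, beside 35.4% and 16.4% of all genes. Without genes above 8 kb of exons, chosen after seeing the data, 49 complex genes were left. At OHT 4D 3 of them were higher and 0 lower, beside 6.74% and 6.5% of all genes of these lengths. At Tc 2D 0 were higher and 20 lower, beside 22.2% and 27.4%. With the other Srcap ID, added likewise, 1 was lower at OHT 4D and 0 were higher at Tc 2D. The cause of these shifts was not tested. Single libraries and 11 to 47 GFP reads at the promoters limit what can be told.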
